A study of Mus musculus with 9 samples.

Results

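Potassium channel genes were described in the cholinergic neurons of the adult mouse spinal cord. Every feature whose symbol begins with Kcn was taken, which gave 90 of the 21457 features measured. Members were kept for the comparisons if they reached 10 CPM (counts scaled to a library sum of 1000000) in at least 3 of the library sums of the 3 neuron classes. This left 51 members, of which 50 code for proteins and 1, *Kcnq1ot1*, is a long non-coding RNA.

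The study sequenced single nuclei from 3 stretches of the cord, labelled cervical, thoracic and lumbar/sacral, to describe the diversity of spinal cholinergic neurons. All mice came from the line Chat-IRES-Cre::Sun1-sfGFP, were heterozygous for both alleles (Chat-iCre:+/wt; SUN-SfGFP:+/wt) and 8 weeks old, and no treatment was named. In this line Cre is driven by *Chat*, so any cell that has expressed *Chat* carries a fluorescent nuclear envelope, by which nuclei were sorted together with a DNA dye. There were 12 mice in 3 pools of 4: replicate 1 held 2 males and 2 females, replicate 2 held males and replicate 3 held females, and each pool gave 1 library per region (9 libraries). The authors assigned 16042 of 34231 annotated nuclei to 21 cholinergic clusters in 3 classes: skeletal motor neurons (S1 to S3), visceral motor neurons (V1 to V10) and cholinergic interneurons (I1 to I8). The libraries held 747 (cervical replicate 2) to 2825 (cervical replicate 1) cholinergic nuclei, and their summed corrected counts ran from 9751375 (lumbar/sacral replicate 3) to 19432614 (cervical replicate 1). A level below is the sum of the corrected counts of a group of nuclei in 1 library, scaled to CPM, and n is the number of libraries.

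Potassium channels let potassium leave the cell and so set the resting potential, end action potentials and shape the interval between spikes. The pore is built from subunits of a few families: voltage-gated (Kv, with the Kv7 and EAG-related groups), calcium- or sodium-activated (BK, SK, Slo2), inward rectifiers (Kir) and the background leak channels (K2P). Electrically silent Kv subunits and auxiliary proteins such as the KChIP, Kv-beta and BK beta subunits change the gating of the pores they join, and motor neuron types are known to differ in firing through such currents.

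The labels were checked against marker genes first. The summed level of each class's marker list was highest in its own class in 9 of 9 libraries. Of the markers alone, *Tns1*, *Chat*, *Zeb2*, *Fbn2*, *Pax2* and *Mpped2* were highest in their own class in 9 of 9 libraries and *Prph* in 8, but *Nos1*, listed for visceral motor neurons, was highest there in 0 of 9. Among glial markers, *Sox10* reached at most 0.213 CPM, *Aqp4* 0.686 and *Gfap* 1.11 in any library. The microglial marker *P2ry12* ran from 3.45 (cervical replicate 1) to 78.5 CPM (lumbar/sacral replicate 3).

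A pair of libraries went against their region labels. *Hoxa9*, which is expressed from thoracic levels downwards, stood at 0.412, 9.68 and 0.213 CPM in the libraries labelled cervical replicates 1, 2 and 3, at 9.35, 0.507 and 9.04 CPM in those labelled thoracic, and at 28.8, 31.8 and 24.4 CPM in the lumbar/sacral ones. *Hoxc5* stood at 25.4, 73.3 and 22.5 CPM in the libraries labelled cervical and at 85.3, 13.9 and 84.2 CPM in those labelled thoracic. In both genes the library labelled cervical replicate 2 lay among the thoracic ones and the library labelled thoracic replicate 2 among the cervical ones. *Hoxd10* was at 0 in all 6 libraries labelled cervical or thoracic and at 8.01, 5.01 and 4.10 CPM in the lumbar/sacral ones, so the lumbar/sacral libraries matched their label. Cervical and thoracic libraries were therefore not compared with each other, no library was moved to another group, and results are given with all 9 libraries and, where they change, without this pair. Of 16009 distinct cell barcodes, 33 occurred in more than 1 library.

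By role, 39 of 60 pore-forming members, 9 of 14 auxiliary subunits and 1 of 10 silent Kv subunits (*Kcng4*) were kept. All members of the Kv2, Kv3, Kv7, Slo2, KChIP and Kv-beta groups were kept, against 7 of 12 K2P, 5 of 11 Kir and 0 of 3 KCNE members. The filter kept 32 members that reached 10 CPM in all 27 library and class sums. *Kcng4* passed through skeletal motor neurons alone, so it had to differ between classes. Just outside the threshold were *Kcnd1* and *Kcns3*, with 2 sums of at least 10 CPM each. Of the 39 members not kept, 18 had a mean below 1 CPM in each class.

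The promoters of 5 members are shown because the class and type differences below turn on them, and they were chosen after the levels had been seen. *Kcng4* (ENSMUSG00000045246.11) lies at chr8:119623854-119635680 on the minus strand of GRCm38, *Kcnk13* at chr12:99964499-100062682 (plus), *Kcnmb2* at chr3:31902507-32200180 (plus), *Kcnmb4* at chr10:116417861-116473878 (minus) and *Kcnt2* at chr1:140246158-140612067 (plus). The sequences are from RefSeq (GRCm38.p6), 300 bases around a transcription start of that table, written 5′ to 3′ on the gene's strand. The gene coordinates are those of GENCODE, and the windows of *Kcnt2*, which ends before the GENCODE start, and *Kcnmb4*, which lies inside the GENCODE gene, do not hold that start. They span chr8:119635631-119635930 (minus) for *Kcng4*, chr12:99964249-99964548 (plus) for *Kcnk13*, chr3:31902453-31902752 (plus) for *Kcnmb2*, chr10:116473474-116473773 (minus) for *Kcnmb4* and chr1:140245468-140245767 (plus) for *Kcnt2*. Capitals mark GC boxes (GGGCGG on either strand), which occurred among the 5 in *Kcnmb4* alone, 4 times, where the GC content was 79.0% against 47.7% in *Kcnmb2*.
Kcng4: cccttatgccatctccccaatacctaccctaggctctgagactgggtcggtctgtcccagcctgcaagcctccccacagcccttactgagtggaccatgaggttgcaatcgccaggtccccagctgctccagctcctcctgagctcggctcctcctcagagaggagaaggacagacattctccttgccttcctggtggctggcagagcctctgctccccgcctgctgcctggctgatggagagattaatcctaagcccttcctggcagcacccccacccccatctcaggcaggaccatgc
Kcnk13: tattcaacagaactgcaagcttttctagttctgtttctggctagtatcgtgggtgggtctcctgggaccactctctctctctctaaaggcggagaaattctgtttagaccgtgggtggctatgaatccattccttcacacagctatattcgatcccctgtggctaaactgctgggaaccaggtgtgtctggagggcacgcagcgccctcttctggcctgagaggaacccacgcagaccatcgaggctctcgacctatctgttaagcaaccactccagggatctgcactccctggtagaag
Kcnmb2: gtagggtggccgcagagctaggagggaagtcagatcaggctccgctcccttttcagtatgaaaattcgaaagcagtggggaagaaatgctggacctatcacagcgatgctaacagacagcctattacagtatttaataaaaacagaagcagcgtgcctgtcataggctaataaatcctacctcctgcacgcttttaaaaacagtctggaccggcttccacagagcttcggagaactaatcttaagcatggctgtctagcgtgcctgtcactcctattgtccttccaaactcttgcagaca
Kcnmb4: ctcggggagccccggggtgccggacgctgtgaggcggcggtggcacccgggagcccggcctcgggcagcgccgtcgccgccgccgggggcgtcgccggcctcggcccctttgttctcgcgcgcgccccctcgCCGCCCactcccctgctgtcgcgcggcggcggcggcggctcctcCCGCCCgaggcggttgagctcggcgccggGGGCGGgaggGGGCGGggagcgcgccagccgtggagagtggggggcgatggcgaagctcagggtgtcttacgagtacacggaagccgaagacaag
Kcnt2: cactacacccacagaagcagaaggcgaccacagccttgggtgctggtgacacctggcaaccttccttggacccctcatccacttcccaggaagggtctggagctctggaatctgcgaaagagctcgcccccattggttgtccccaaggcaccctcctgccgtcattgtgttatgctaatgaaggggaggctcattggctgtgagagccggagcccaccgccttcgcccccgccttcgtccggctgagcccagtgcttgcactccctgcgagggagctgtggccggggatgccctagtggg

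Promoters of 38 kept members were found in RefSeq, 56 in all. Searched on both strands, the GC box GGGCGG was in 24 of the 56 (42.9%) and in 35.7% of 32851 mouse promoters of the same length, and the TATA box TATAAA in 3 of 56 (5.36%) and in 13.6%. The estrogen-related receptor element TNAAGGTCA was in 0 of 56 and in 1.28%. A match or its absence describes these letters in this window and says nothing of a factor.

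All 90 members were found in the GENCODE annotation of GRCm38, and the 51 kept lay on 17 chromosomes. Of these, 23 overlapped another measured gene on the opposite strand, among them *Kcnq1* with *Kcnq1ot1*, *Kcnd3* with *Kcnd3os*, *Kcnmb4* with *Kcnmb4os1* and *Kcnmb4os2*, *Kcnab3* with *Kcnab3os*, *Kcnh1* with *Hhat*, *Kcnt2* with *4930590L20Rik* and *Kcnq5* with *Gm26580*. Whether counting used strand is not given in the sources used here, so levels of these members are uncertain to that extent.

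Introns are counted in nuclei, so a long gene gathers more counts, and 23 of the 51 kept members span over 100 kb. Per kb of gene span, averaged over the 3 classes, the highest level was that of *Kcna1*, 14.1 CPM per kb over 5.99 kb. Also high were *Kcnq1ot1* (9.18), *Kcnd2* (3.97), *Kcnip4* (3.65, over 1135 kb) and *Kcnq3* (3.25 CPM per kb). Apart from *Kcnq1ot1*, these code for a low-threshold Kv1 subunit, the A-type subunit of Kv4 channels, its cytosolic partner and a subunit of the M-current. By CPM alone, 6 of the 10 highest members were also among the 10 highest per kb.

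Levels over the 21 clusters are described here without a test; the authors drew the clusters from these same nuclei. Of the 51 kept members, 16 had their highest cluster mean in a skeletal, 11 in a visceral and 24 in an interneuron cluster, 6 of the 24 in I8. The classes hold unequal numbers of clusters (S1 to S3, V1 to V10 and I1 to I8). Neither these counts nor the next was made over all features, so they are not read as particular to the members. The highest mean was at least 4 times the median of the cluster means in 20 members. The most uneven was *Kcnmb2*, the BK beta subunit that makes BK channels inactivate: it stood at 963 ± 87.7 CPM (SD, n = 9) in I2, followed by I3 with 369 ± 54.2 CPM, and the median of the cluster means was 42.8 times lower than I2. The libraries in I2 (805 to 1117 CPM) lay apart from those in I3 (290.3 to 454 CPM).

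Next came *Kcnk13*, a leak channel subunit, with 117 ± 30.3 CPM in S3 (39.9 times the median cluster) and 43.9 ± 26.3 CPM in S1, S3 being higher in 9 of 9 libraries. For the silent subunit *Kcng4*, which joins Kv2 channels, the first clusters were S1 with 47.5 ± 5.54 and S2 with 44.1 ± 18.4 CPM. These did not differ beyond their spread, S1 being higher in 4 of 9 libraries, and S1 was 31.9 times the median cluster. *Kcnmb4*, the neuronal BK beta subunit, stood at 93.9 ± 25.8 CPM in S2, 10.8 times the median cluster, and *Kcna1* was highest in S3 (187 ± 87 CPM) with S2 within its spread (181 ± 47.8 CPM).

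Interneuron clusters held peaks of several auxiliary and Kir members. I8 led for the KChIP member *Kcnip2* at 111 ± 38.3 CPM (n = 8, 9.42 times the median cluster, higher than the next cluster in 8 of 8 libraries) and for the strong inward rectifier *Kcnj12* at 45.9 ± 21.3 CPM (8.89 times). I2 led for *Kcnip3* (61.6 ± 16 CPM, 11.7 times), and also for *Kcnh8* and *Kcnh5*, both EAG-related, at 76.3 ± 15.2 and 158 ± 62.3 CPM. For *Kcnh5* the next cluster, I5, was within the spread (154 ± 51.3 CPM). The G-protein-gated inward rectifier *Kcnj6* was highest in I1 (329.8 ± 38.9 CPM), with I7 within its spread (309 ± 21.7 CPM, n = 6). *Kcnq5*, an M-current subunit, was highest in I3 (3074 ± 629 CPM, 9.33 times) and lower in I4 (2144 ± 413 CPM) in 9 of 9 libraries. I8 held 329 nuclei and I7 held 160 nuclei over all libraries, so their levels rest on few nuclei.

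Visceral peaks varied in breadth. *Kcnk2* was highest in V3 (197 CPM), above the next cluster, V5 (113 CPM), in 7 of 7 libraries. The sodium-activated channel gene *Kcnt2* was highest in V4 (1324 ± 653 CPM) but V10 (1264 ± 328 CPM, n = 7) and V9 (1261 ± 284 CPM, n = 6) lay within that spread. The ERG-type gene *Kcnh7* was highest in V5 (1439 ± 355 CPM, n = 7) followed by V3 (1226 ± 453 CPM). Among the flattest were *Kcnq1ot1* and *Kcnq1*, whose highest clusters were 1.28 and 1.32 times the median cluster.

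**Figure D1:**
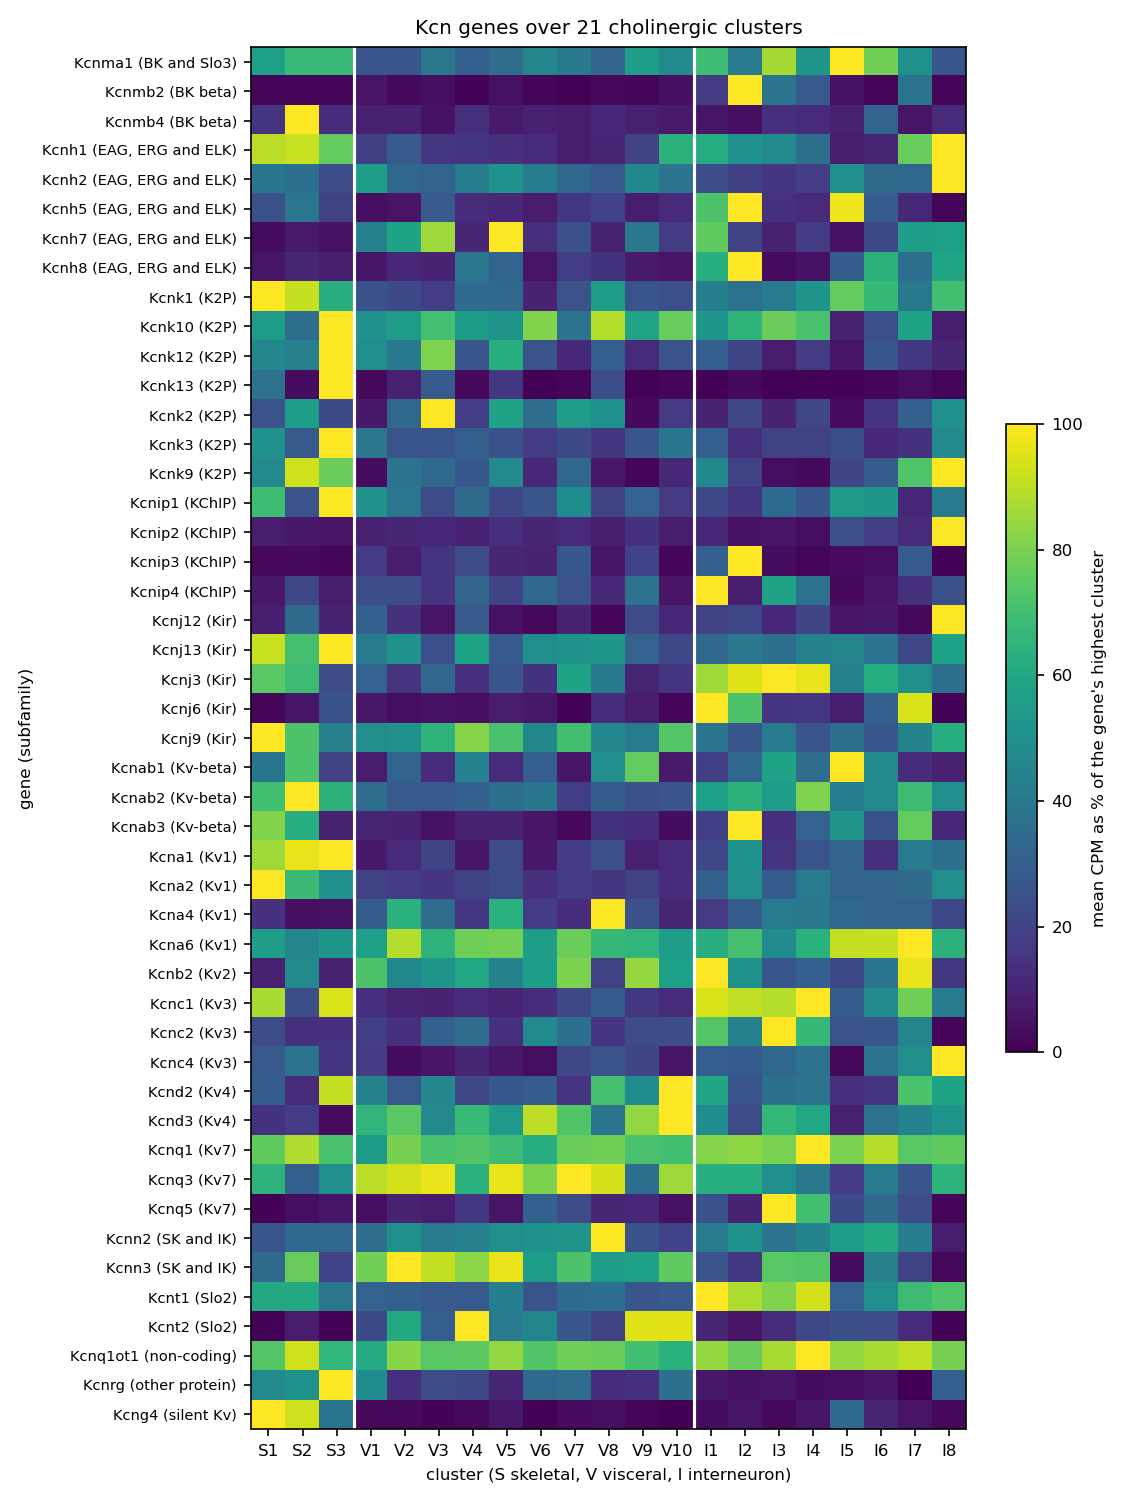
Mean level of 47 of the 51 kept potassium channel genes in the 21 cholinergic clusters, each gene (vertical axis) coloured by the percent of its highest cluster mean and clusters along the horizontal axis. Peaks such as *Kcnmb2* in I2, *Kcnk13* in S3 and *Kcng4* in S1 and S2 stand out against genes of even level such as *Kcnq1*.

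Skeletal motor neurons differed from visceral motor neurons in 24 of 51 kept members (14 higher, 10 lower in skeletal; adjusted p under 0.05 and a change of at least 1 on the log2 scale), where 11.8% of all 11292 features tested passed the same threshold (6.22% higher, 5.59% lower). The median absolute log2 difference was 0.98 over the members and 0.27 over all features. The classes were assigned by the authors from the same nuclei, so the tests describe these labels and are not independent of them. Of the 24 members, 23 differed the same way in every library and 19 had groups that did not overlap (9.47% of all features passed without overlap).

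Higher in skeletal motor neurons were low-threshold Kv1 members, a silent subunit, leak channels and an EAG channel. *Kcng4* had a lowest, median and highest level of 20, 34.8 and 44.8 CPM in skeletal and of 0.455, 1.28 and 1.99 CPM in visceral motor neurons (33.6 ± 7.27 and 1.21 ± 0.471, mean ± SD, n = 9). Every skeletal value lay above every visceral one (log2 fold change 2.62, higher in 9 of 9 libraries). *Kcng4* passed the filter through the skeletal sums alone, so its tests against both other classes were bound to find it higher there and no p-value is given; it is counted in the 24 here and the 21 below, and also passed with no filter. *Kcna1*, which sits beside the nodes of myelinated axons, ran at 116, 155 and 273 CPM against 11.4, 27.4 and 43.7 CPM (log2 fold change 2.60, SE 0.115, adjusted p = 2.32e-14, 9 of 9). Its highest skeletal values were those of the male pool (273, 254 and 229.6 CPM in replicate 2, against 124, 123 and 116 CPM in replicate 1 and 132, 155 and 175 CPM in replicate 3), and the classes still did not overlap.

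*Kcnk13* ran at 39.7, 66.3 and 104 CPM in skeletal and at 1.66, 5.29 and 37.4 CPM in visceral motor neurons (log2 fold change 2.30, SE 0.234, adjusted p = 2.05e-08, higher in 9 of 9 libraries). The 3 highest visceral values were those of the lumbar/sacral libraries, and they lay below the lowest skeletal value. *Kcnk13* is also known from microglia, and whether microglial RNA adds to its levels was not tested. The voltage-gated *Kcnh1* (219.6, 258 and 318 against 30.7, 45.3 and 97.9 CPM, log2 fold change 2.26, SE 0.156) and the Kv3 gene *Kcnc1* (79.7, 106 and 161 against 11, 20.5 and 36.2 CPM, log2 fold change 2.16, SE 0.0838) were also apart in all libraries. Smaller differences in the same direction were seen for *Kcna2* (1.57), *Kcnmb4* (1.45), the acid-sensitive leak channels *Kcnk9* (1.44) and *Kcnk3* (1.23), *Kcnk1* (1.24), and the Kv-beta genes *Kcnab2* and *Kcnab3* (1.13 each on the log2 scale).

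Among the members lower in skeletal motor neurons were a sodium-activated, an ERG-type and an A-type one. *Kcnt2* ran at 6.86, 40.9 and 103 CPM in skeletal and at 364, 601 and 927 CPM in visceral motor neurons (log2 fold change -4.03, SE 0.254, adjusted p = 8.33e-12, lower in 9 of 9 libraries). Its highest skeletal value was that of the library labelled cervical replicate 2, and the classes did not overlap. *Kcnh7* ran at 45.9, 51.6 and 109.7 against 383, 626 and 851 CPM (log2 fold change -3.07, SE 0.173, adjusted p = 1.38e-12), and *Kcnd3*, an A-type subunit, at 29.6, 54.3 and 101 against 299.5, 385 and 454 CPM (log2 fold change -2.65, SE 0.139, adjusted p = 4.25e-13), both lower in 9 of 9 libraries without overlap. The differences of *Kcnq5* (-1.58), the delayed rectifier *Kcnb2* (-1.53), *Kcna4* (-1.50), *Kcnip3* (-1.15) and the SK channel *Kcnn3* (-1.04) were smaller, and *Kcnn3* no longer passed without lumbar/sacral replicate 2 or the library labelled thoracic replicate 2. *Kcnip4* (-1.27, adjusted p = 3.77e-05) was lower in 7 of 9 libraries. With a pseudocount of 20 the count for this comparison was 14 in place of 24, and *Kcnmb4*, *Kcnk3*, *Kcnk1*, *Kcnab2*, *Kcnab3*, *Kcna4*, *Kcnip3*, *Kcnn3* and *Kcnj3* were among those lost. Without the pair of libraries that went against their labels the count was 23, with *Kcnj3* among those lost and *Kcnj6* gained. *Kcnj3* also no longer passed without cervical replicate 1 or 3, thoracic replicate 1 or either library of that pair.

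Between skeletal motor neurons and cholinergic interneurons 21 of 51 members differed (9 higher, 12 lower in skeletal), where 10.7% of all features did (5.69% higher, 4.96% lower). All 21 differed the same way in 9 of 9 libraries and 20 had groups that did not overlap (9.38% of all features passed without overlap). *Kcnk13* was at 0.297, 1.39 and 3.30 CPM (lowest, median and highest) in interneurons, below every skeletal value given above (log2 fold change 3.42, SE 0.234, adjusted p = 4.36e-11). *Kcng4* (log2 fold change 2.09, interneuron mean 3.98 ± 1.41 CPM) and *Kcna1* (1.68, 52.3 ± 22.8 CPM) were again higher in skeletal neurons. The same held for the leak channels *Kcnk12* (1.47), *Kcnk3* (1.42) and *Kcnk9* (1.11), for *Kcnrg* (1.49), a soluble regulator of Kv channels, for *Kcnmb4* (1.19) and for *Kcnip1* (1.11). *Kcnrg* reached 10 CPM in 5 skeletal sums, 1 visceral sum and 0 interneuron sums. It would have missed the filter without the skeletal sums, so its higher level there than in interneurons was built in.

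In the other direction *Kcnmb2* ran at 6.11, 14.6 and 26.3 CPM in skeletal neurons and at 231, 299 and 328 CPM in interneurons (log2 fold change -3.89, SE 0.143, adjusted p = 1.76e-15, lower in 9 of 9). *Kcnq5* ran at 52.8, 128 and 176 against 828, 1123 and 1655 CPM (log2 fold change -3.32, SE 0.137, adjusted p = 1.02e-14, lower in 9 of 9). Both were far apart in every library, the highest skeletal value lying below the lowest interneuron one. *Kcnh7* (-2.69), *Kcnt2* (-2.36), *Kcnip4* (-2.19), *Kcnd3* (-2.01), *Kcnh8* (-1.92), *Kcnj6* (-1.77) and *Kcnc2* (-1.74 on the log2 scale) were lower in skeletal neurons as well. With a pseudocount of 20 the count was 15 in place of 21, with *Kcna4*, *Kcnip3*, *Kcnmb4*, *Kcnrg*, *Kcnk9* and *Kcnk12* lost.

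Visceral motor neurons differed from interneurons in 16 of 51 members (4 higher, 12 lower in visceral), where 7.75% of all features did (3.95% higher, 3.8% lower), and all 16 differed the same way in 9 of 9 libraries. *Kcnmb2* ran at 12.7, 21.8 and 42.8 CPM in visceral neurons, below each interneuron value (log2 fold change -3.37, SE 0.143, adjusted p = 2.70e-14). *Kcnj6* ran at 12.9, 20.7 and 28 against 118, 162 and 197 CPM (log2 fold change -2.75, SE 0.106, adjusted p = 5.09e-15). *Kcnc1* ran at 11, 20.5 and 36.2 against 82, 107 and 157 CPM (log2 fold change -2.19, SE 0.0838, adjusted p = 4.56e-15). In these genes, too, the classes did not overlap. Also lower were *Kcnh5* (-1.88), *Kcnq5* (-1.74), the G-protein-gated *Kcnj3* (-1.64), *Kcnh1* (-1.38), *Kcnh8* (-1.28), the sodium-activated *Kcnt1* (-1.25) and the Kv3 gene *Kcnc2* (-1.14). Higher in visceral neurons were *Kcnt2* (1.68), *Kcnn3* (1.15), *Kcnk13* (1.12) and *Kcnk2* (1.0). The last 2 fell below the threshold on the log2 scale without single libraries: *Kcnk13* came to 0.94 without lumbar/sacral replicate 1 and 0.98 without lumbar/sacral replicate 2, and *Kcnk2* to between 0.90 and 0.94 without lumbar/sacral replicate 1, 2 or 3 or the library labelled cervical replicate 2. Scaling by the median of ratios gave 0.94 for *Kcnk2* as well. With a pseudocount of 20 the count was 11 in place of 16, with *Kcnk2*, *Kcnc4*, *Kcnab3*, *Kcnk13* and *Kcnh8* lost.

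By subfamily, 4 of 7 kept K2P members were higher in skeletal than in visceral motor neurons and 4 of 7 higher than in interneurons, and 0 were lower in either comparison (6.22% and 5.69% of all features were higher). With a pseudocount of 20 both counts came to 2 of 7. The summed level of all 12 K2P members was 585 ± 81.7 CPM in skeletal, 380 ± 99.4 CPM in visceral neurons and 288 ± 28.3 CPM in interneurons. Of the Kv3 members, 3 of 4 were lower in visceral neurons than in interneurons, as were 3 of 5 EAG-related members (3.8% of all features); with a pseudocount of 20 these were 2 of 4 and 2 of 5, and the Kv3 count was 2 without cervical replicate 1. Pore-forming members split 9 higher and 8 lower of 39 between skeletal and visceral neurons, and auxiliary subunits 4 and 2 of 9. In all 3 class comparisons *Kcnk13*, *Kcnq5* and *Kcnt2* differed (1.21% of all features did), 34 members did so in at least 1 (17.6% of all features), and 17 in none. The latter include the BK pore *Kcnma1*, the M-current subunit *Kcnq3* and the A-type subunit *Kcnd2*. A member that missed the threshold is not shown to be equal between classes.

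**Figure D2:**
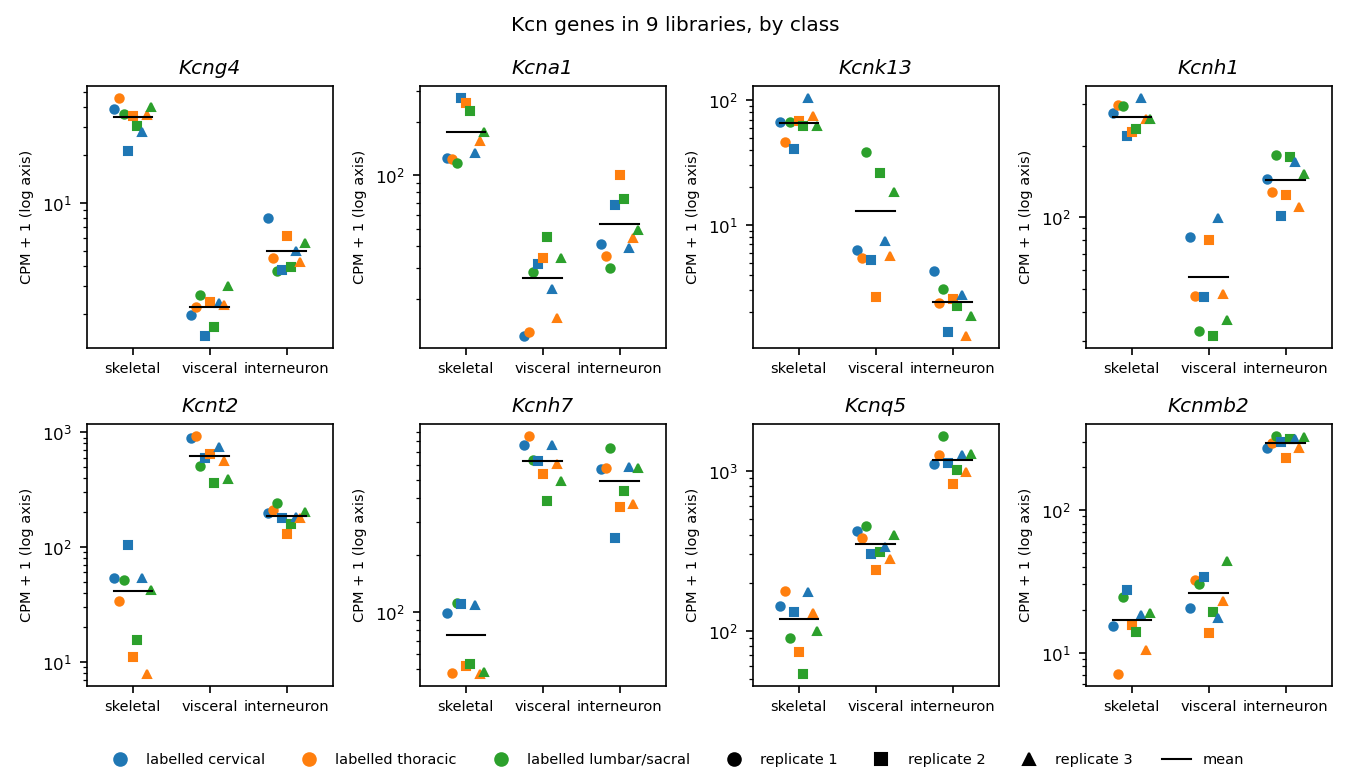
Levels of 8 potassium channel genes in the skeletal, visceral and interneuron classes, as CPM + 1 on a log axis, 1 point per library (9 per class; colour marks the labelled region, shape the replicate) with a line at the mean. *Kcng4*, *Kcna1*, *Kcnk13* and *Kcnh1* were highest in skeletal motor neurons, *Kcnt2* and *Kcnh7* higher in visceral than in skeletal motor neurons, and *Kcnq5* and *Kcnmb2* highest in interneurons.

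The skeletal types S1, S2 and S3 were compared next, over 55 members that passed the filter in the type sums. The types are clusters that the authors drew from these nuclei, so as for the classes the p-values rest on labels made with the same data. Between S2 and S1 14 members differed (9 higher, 5 lower in S2), where 5.23% of all features did (3.24% higher, 2% lower). Between S2 and S3 22 differed (14 higher, 8 lower in S2), where 8.12% of all features did (4.83% higher, 3.29% lower). Between S1 and S3 8 differed (4 higher, 4 lower in S1), where 5.33% did (2.75% higher, 2.58% lower). Of these, 11, 18 and 8 differed the same way in every library. S2 of the library labelled cervical replicate 2 (71 nuclei) stood apart from the other S2 sums, with *Kcng4* at 2.94 CPM where the others ran from 35.1 CPM upwards. Without that library the counts were 16, 24 and 9, and without the pair of libraries that went against their labels 17, 23 and 10. S2 of thoracic replicate 3 held 26 nuclei.

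*Kcnk13* separated all 3 types. Its lowest, median and highest levels were 1.31, 3.46 and 7.95 CPM in S2, 18.4, 33.6 and 87.5 CPM in S1 and 84.9, 117 and 183 CPM in S3. S2 lay below both other types without overlap, and S1 and S3 overlapped, S3 being higher in 9 of 9 libraries (S2 against S3, log2 fold change -3.77, SE 0.189, adjusted p = 2.32e-14; S2 against S1, log2 fold change -2.32, SE 0.189, adjusted p = 5.03e-10; S1 against S3, log2 fold change -1.45, SE 0.189, adjusted p = 1.02e-06). *Kcnd2*, the pore of A-type Kv4 channels, ran at 305, 521 and 1071 CPM in S2, 715, 1288 and 2204 CPM in S1 and 2959.6, 3828 and 5779 CPM in S3. S3 lay above both other types without overlap (log2 fold change -3.01 for S2 and -1.66 for S1 against S3), while S1 and S2 overlapped and S2 was lower in 9 of 9 libraries (-1.35). *Kcnj6* ran at 1.32, 4.14 and 9.09 CPM in S1, 2.65, 18.1 and 37.3 CPM in S2 and 48.3, 80.2 and 118 CPM in S3. S3 was again apart from S1 (log2 fold change -3.24, SE 0.227, adjusted p = 1.36e-11, 9 of 9) and from S2 (log2 fold change -1.96, SE 0.227, adjusted p = 1.16e-07, 9 of 9), and S2 was above S1 in 8 of 9 libraries (1.28).

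S2 was set apart by a BK beta subunit and a Kv2 pore. *Kcnmb4* ran at 44.2, 93 and 126 CPM in S2, 5.66, 14.2 and 31.9 CPM in S1 and 3.51, 9.87 and 21.3 CPM in S3, and *Kcnb2* at 618, 1163 and 1586, 127, 190.1 and 338 and 160.2, 221 and 307 CPM. For both genes every S2 value lay above every value of the other types (*Kcnmb4*, log2 fold change 2.36 and 2.59 against S1 and S3; *Kcnb2*, 2.38 and 2.23). *Kcnt2* was higher in S2 than in S1 (2.56) and S3 (2.51) in 9 of 9 libraries with overlap. *Kcnip4*, *Kcnn3*, *Kcnj12* and *Kcnj14* were also higher in S2 than in S1 and S3. Through the S2 sums alone *Kcnj12*, *Kcnj14* and *Kcns3* passed the filter, so only a higher level in S2 could be found for them. The Kv-beta gene *Kcnab1* (686 against 189 CPM, 1.84) was higher in S2 than in S3, as were a pair of silent subunits tested by type only, *Kcns3* (1.37) and *Kcng1* (1.02). Lower in S2 than in both other types, without overlap, were the Kv3 gene *Kcnc1* (-1.85 and -1.97) and the KChIP gene *Kcnip1* (-1.44 and -1.97). The leak channels *Kcnk3* (-1.71), *Kcnk10* (-1.44) and *Kcnk12* (-1.17, and -0.94 without the pair of libraries) were lower in S2 than in S3, whereas the leak channel *Kcnk2* was higher (1.12), a call lost without thoracic replicate 3. With a pseudocount of 20 the counts were 10, 15 and 6 in place of 14, 22 and 8; lost were *Kcnn3*, *Kcnj14*, *Kcnj12* and *Kcnj6* in S2 against S1, *Kcnk2*, *Kcng1*, *Kcnj14*, *Kcnj12*, *Kcnab3*, *Kcns3* and *Kcnk12* in S2 against S3 and *Kcng4* and *Kcnab3* in S1 against S3.

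S1 was higher than S3 in *Kcnd3* (82 ± 35 against 17.3 ± 5.37 CPM, log2 fold change 1.91, SE 0.197, adjusted p = 2.00e-08), *Kcnab3* (20 ± 6.27 against 2.49 ± 1.37 CPM, log2 fold change 1.72), *Kcnj3* (291 ± 81.2 against 93.2 ± 28.7 CPM, 1.59) and *Kcng4* (39.2, 46.9 and 55.3 against 12.3, 18.9 and 23.4 CPM as lowest, median and highest, 1.17), each in 9 of 9 libraries and without overlap. *Kcnq5* was lower in S1 than in S3 (-2.37). Its difference between S2 and S1 (log2 fold change 1.49, SE 0.486, adjusted p = 0.0246, higher in 8 of 9) was lost when thoracic replicate 1, the library labelled cervical replicate 2, cervical replicate 3 or lumbar/sacral replicate 3 was left out (1.08 without the library labelled cervical replicate 2), and also without the pair of libraries that went against their labels (1.18), with a pseudocount of 1 (1.45) and with no filter; its adjusted p ran from 0.000118 to 0.132 over the alternatives. That of *Kcnq3* (-1.09) came to -0.99 without lumbar/sacral replicate 3. Also lost with 1 library left out were *Kcnj14* in S2 against S1 (thoracic replicate 1 or cervical replicate 3) and, in S2 against S3, *Kcng1* (cervical replicate 1 or 3 or lumbar/sacral replicate 3) and *Kcnj12* (lumbar/sacral replicate 3).

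**Figure D3:**
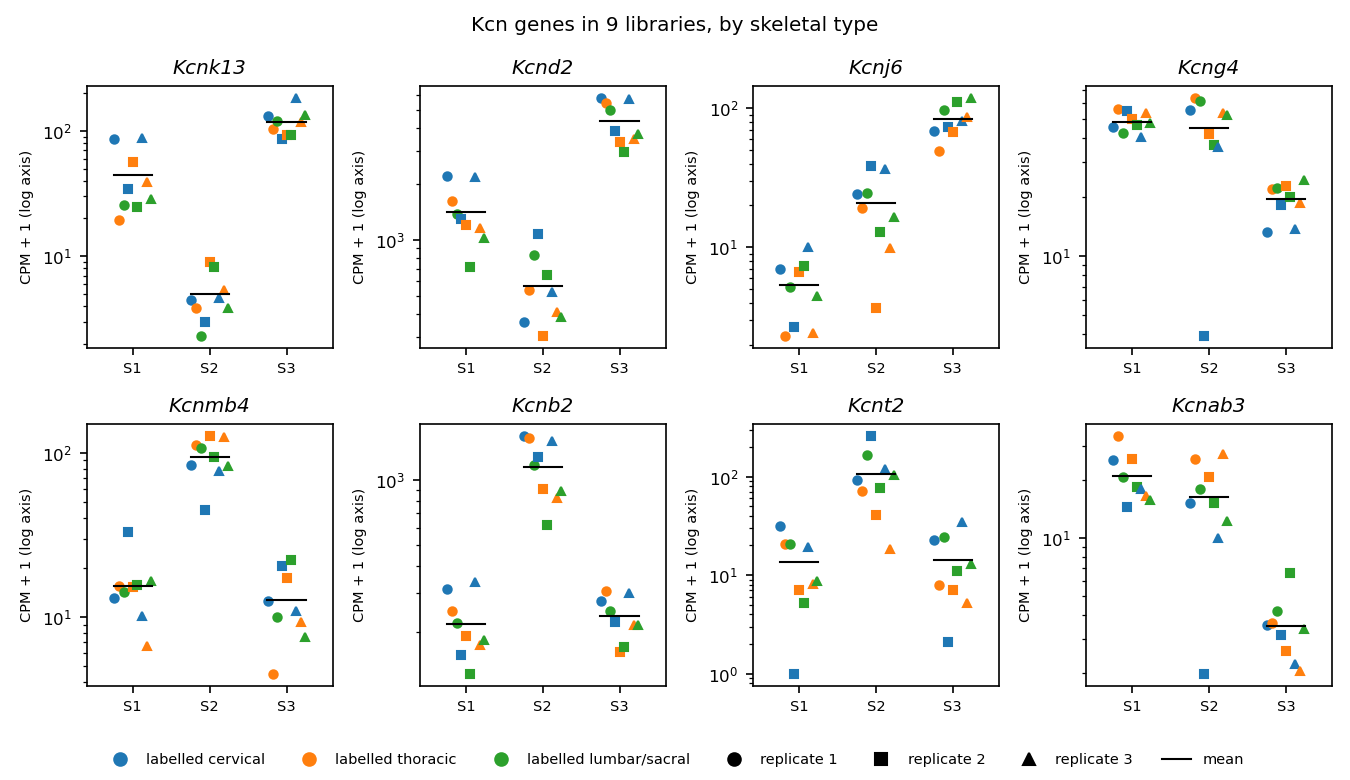
Levels of 8 potassium channel genes in the skeletal types S1, S2 and S3, as CPM + 1 on a log axis, 1 point per library (9 per type; colour marks the labelled region, shape the replicate) with a line at the mean. *Kcnk13*, *Kcnd2* and *Kcnj6* were highest in S3, *Kcnmb4*, *Kcnb2* and *Kcnt2* highest in S2, and *Kcng4* and *Kcnab3* lowest in S3.

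Lumbar/sacral libraries (n = 3) were then compared with the 6 rostral ones in each class. In visceral motor neurons 8 of 45 members tested differed (5 higher, 3 lower; limma, adjusted p under 0.05), where 4.27% of all features did (2.32% higher, 1.94% lower), and 19 had an unadjusted p under 0.05 (13.3% of all features). *Kcnk2*, a mechanosensitive leak channel, stood at 115, 204 and 172 CPM in lumbar/sacral replicates 1, 2 and 3. It stood at 27.1, 52 and 30.8 CPM in the libraries labelled cervical and at 34.9, 28 and 62.7 CPM in those labelled thoracic (log2 fold change 1.95, SE 0.280, adjusted p = 0.00459). *Kcnk13* stood at 37.4, 25.1 and 17.4 CPM in the lumbar/sacral libraries and at 1.66 to 6.42 CPM in the rostral ones (log2 fold change 1.71). *Kcnk13* passed the filter through these 3 libraries alone, so only a higher level there could be found and no p-value is given, though it also passed with no filter. For *Kcna4*, an A-type Kv1 gene, the values were 51, 66.5 and 52.2 CPM against 9.37 to 20.8 CPM (log2 fold change 1.68, SE 0.182, adjusted p = 0.00121). In each, all 3 lumbar/sacral values lay above all 6 rostral ones.

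The SK gene *Kcnn2* (912, 658 and 566 against 262 to 457 CPM, log2 fold change 0.96, SE 0.198, adjusted p = 0.0289) and *Kcnj3* (191, 117 and 136 against 48.5 to 96.6 CPM, log2 fold change 0.92, SE 0.210, adjusted p = 0.0448) were higher too. Lower in the lumbar/sacral libraries were *Kcnc2* (230.1, 175 and 255 against 286 to 499 CPM, log2 fold change -0.88, SE 0.188, adjusted p = 0.0342), *Kcnip1* (201, 210.0 and 223 against 291 to 447 CPM, log2 fold change -0.75, SE 0.150, adjusted p = 0.0256) and *Kcnb2* (982, 889 and 892 against 1158 to 1830.4 CPM, log2 fold change -0.71, SE 0.154, adjusted p = 0.0349). None of the 8 overlapped between the groups (4.23% of all features passed without overlap). Without the pair of libraries that went against their labels 7 members passed, *Kcnj3* and *Kcnn2* falling out and *Kcnh1* coming in.

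The clusters that make up the visceral class differed between the regions. V8 held 30.5% of lumbar/sacral and 0.0861% of rostral visceral nuclei (mean of libraries), V1 5.19% and 18.3%, V6 2.0% and 12.6%, and V9 0.30% and 6.17%. Within V3, *Kcnk2* stood at 268, 523 and 455 CPM in the lumbar/sacral libraries and at 40.8 to 178 CPM in the rostral ones, and within V4 at 75.6, 95.8 and 101 against 4.89 to 13.6 CPM; in V7 its lumbar/sacral values (65.6, 106 and 102 CPM) lay within the rostral range. *Kcna4* stood at 82.3, 98 and 96 CPM in lumbar/sacral V2 against 12.8 to 35.2 CPM in rostral V2, and *Kcnn2* had a mean of 981 CPM in V8. With V1, V2, V3, V4 and V7 weighted equally in each library 1 member passed, *Kcnk2*. In that limma fit the lumbar/sacral difference of *Kcna4* fell to 0.54 on the log2 scale (adjusted p = 0.598). That of *Kcnk13* fell to 0.56 (adjusted p = 0.566), both well below the values given above. How much of the regional differences comes from the mix of clusters was not tested further.

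The count of 8 was also unsteady to the libraries used. It came to 2 without lumbar/sacral replicate 1 or 2, 3 without lumbar/sacral replicate 3 or cervical replicate 3, and 4 without cervical replicate 1 or thoracic replicate 3. *Kcnk2* and *Kcna4* passed with any single library left out. With the pools of mice as a block it was 14, and with scaling by the median of ratios 4 (3 higher, 1 lower), with *Kcnb2*, *Kcnj3*, *Kcnc2* and *Kcnn2* lost. These fits held the libraries labelled cervical and thoracic as 2 groups, and with the 6 rostral libraries as 1 group 10 members passed, *Kcnt2* and *Kcnab1* being added. The share of all features passing under these settings is not given here. Whether the members moved apart from other features was not tested.

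**Figure D4:**
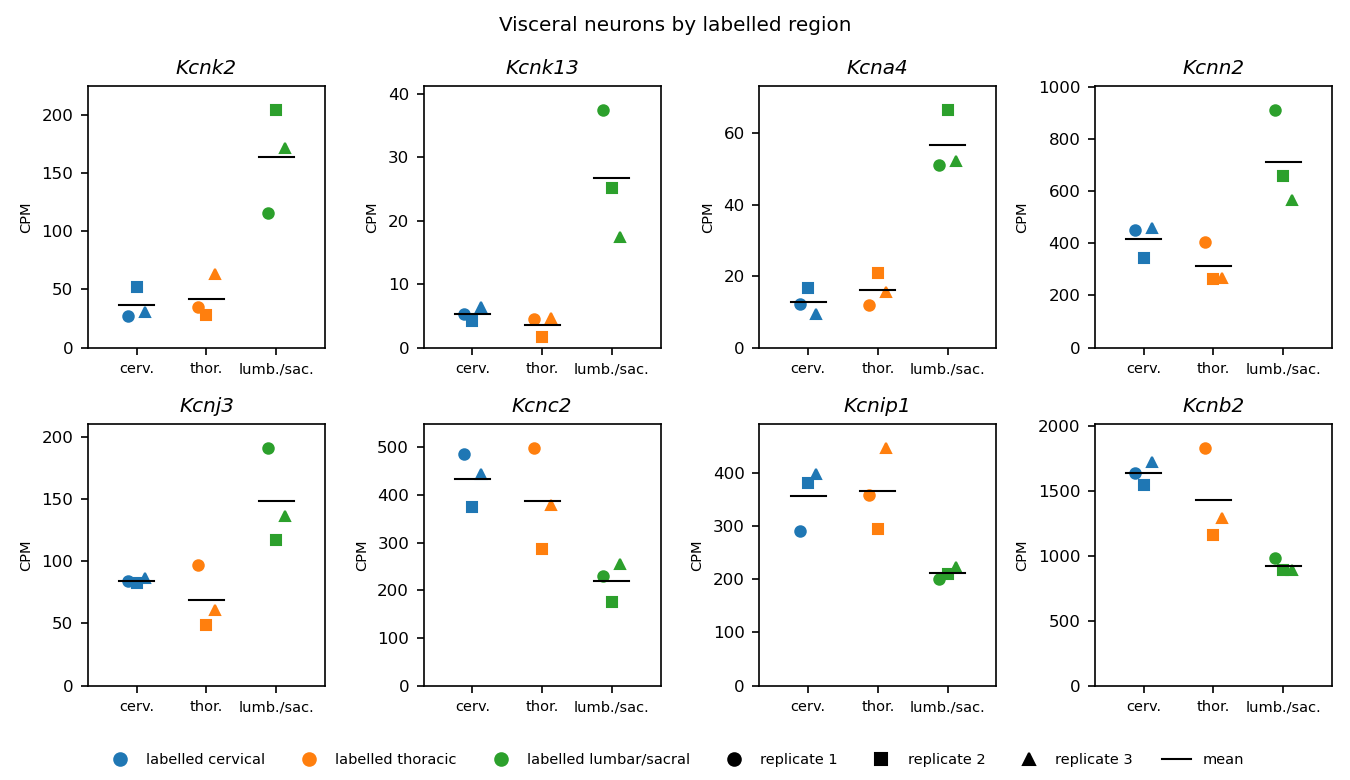
Levels in visceral motor neurons (CPM, linear axis from 0) of the 8 potassium channel genes that differed between lumbar/sacral and rostral libraries, by labelled region, 1 point per library (3 per region; shape marks the replicate) with a line at the mean. The lumbar/sacral libraries lie above all 6 others in *Kcnk2*, *Kcnk13*, *Kcna4*, *Kcnn2* and *Kcnj3* and below them in *Kcnc2*, *Kcnip1* and *Kcnb2*.

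In skeletal motor neurons 0 of 45 members passed in limma (0.01% of all features did; 6 members with an unadjusted p under 0.05, and 4.02% of all features), and in interneurons 0 of 47 (0.051% of all features; 5 members with an unadjusted p under 0.05, and 3.38% of all features). In skeletal neurons *Kcnc2* came nearest, at 177, 132 and 122 CPM in lumbar/sacral and 214 to 323 CPM in rostral libraries (log2 fold change -0.88, adjusted p = 0.260). In interneurons *Kcnk2* had a log2 fold change of 0.90 (adjusted p = 0.185). The lumbar/sacral difference was itself tested between classes within libraries, and it differed in 10 of 50 members between skeletal and visceral neurons, 2 of 50 between skeletal neurons and interneurons and 17 of 49 between visceral neurons and interneurons (6.14%, 0.258% and 9.16% of all features). That of *Kcnk2* was smaller in skeletal than in visceral neurons by -1.98 (adjusted p = 0.00111) and larger in visceral neurons than in interneurons by 1.05 on the log2 scale (adjusted p = 0.0223). The latter missed the threshold without lumbar/sacral replicate 1, 2 or 3 (1.08, 1.01 and 1.07), with a pseudocount of 1 and with no filter, and its adjusted p ran from 0.00111 to 0.0836 over the alternatives. Without these replicates in turn the counts were 6, 6 and 9 (of 10), 0, 0 and 0 (of 2) and 10, 13 and 12 (of 17).

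Males and females were each 1 pool of 4 mice in 3 libraries, so sex and pool cannot be told apart. Of the members tested, 0 of 44 differed in skeletal motor neurons, 0 of 42 in visceral motor neurons and 0 of 45 in interneurons (limma with a region term; 0.0725%, 0.0513% and 0.0521% of all features did), and 9, 5 and 5 had an unadjusted p under 0.05, where 12.4%, 14.2% and 13.8% of all features did. *Kcna1* was among these in each class, higher in the male pool by 0.70, 0.58 and 0.80 on the log2 scale, with adjusted p = 0.330, 0.301 and 0.329. The region term uses the labels that a pair of libraries went against. Without the library labelled cervical replicate 2 the counts were 10, 0 and 7, and without cervical replicate 3 they were 10, 1 and 8. Either way the cervical library left is taken up by its own region term. Both settings thus rest on the same thoracic and lumbar/sacral libraries. The share of all features passing there is not given, so these counts are not read as a result about the members. With 2 regions as the term in place of 3 the counts were 0 in each class, also without the pair.

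Genes whose products bind or regulate these channels without carrying a Kcn symbol were taken from a list of 22, of which 21 were measured and 18 tested between classes. Between skeletal and visceral motor neurons 3 were higher and 2 lower (6.22% and 5.59% of all features). *Lrrc38*, an auxiliary subunit of BK channels, ran at 14.3, 24.6 and 32.3 CPM in skeletal and at 0, 0.257 and 0.455 CPM in visceral neurons (log2 fold change 2.48, 9 of 9 libraries); it passed the filter through the skeletal sums alone, so no p-value is given. *Lgi1*, a secreted protein that acts on Kv1 channels at synapses, ran at 0.786, 2.52 and 3.62 against 15.3, 25.7 and 67.8 CPM (log2 fold change -2.27, SE 0.164, adjusted p = 7.60e-11, lower in 9 of 9). *Abcc8*, the sulfonylurea receptor, came to 1.87, *Lgi3* to 1.02 and the scaffold gene *Dlg1* to -1.05. Against interneurons, skeletal neurons were higher in *Lrrc38* (1.75) and lower in *Lgi1* (-2.41) and the Kv4 partner *Dpp10* (-1.26), 1 and 2 of 18 (5.69% and 4.96% of all features). Visceral neurons were lower than interneurons in *Lgi2* (-1.01) and *Abcc8* (-1.05) and higher in 0 of 18 (3.8% and 3.95% of all features).

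Of 16 partners tested between skeletal types, *Lrrc38* was lower in S2 than in S1 (-2.37) and S3 (-1.09) and higher in S1 than in S3 (1.27), where *Abcc8* (-1.01) and *Dlg2* (-1.30) were lower; these are 1, 1 and 3 of 16, where 5.23%, 8.12% and 5.33% of all features differed. S2 thus had the lowest level of 1 BK auxiliary gene, *Lrrc38*, and the highest of another, *Kcnmb4*. In visceral neurons 1 of 16 partners differed by region, *Lgi1* with 67.8, 65.9 and 44.3 CPM in lumbar/sacral and 15.3 to 27.1 CPM in rostral libraries (log2 fold change 1.23, SE 0.176, adjusted p = 0.00447), all 3 values above all 6. This share is near that of all features (4.27%).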

How the data were processed

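Nuclei were counted by the authors with Cell Ranger 3.1.0 on a pre-mRNA reference of GRCm38, and the deposited values are corrected counts from the regularised regression of Seurat, which are not raw counts and were treated as a score; cell classes and clusters are the authors' deposited annotation. Here the corrected counts were summed per library and class, or library and cluster with at least 10 nuclei, and scaled to 1000000 (CPM). Features that reached 10 CPM in 3 or more sums were tested on log2(CPM + 5) with limma 3.58.1 (trend, R 4.3.3), two-sided, with Benjamini-Hochberg adjustment over all features tested. Fold changes are on this scale, which understates changes of low genes. Class and type fits had the library as a term and needed adjusted p under 0.05 and a log2 change of at least 1; region and sex fits needed adjusted p under 0.05, the sex fit with a region term and without the mixed pool. Sums used Python 3.11.15, numpy 2.4.6, pandas 2.3.3 and scipy 1.17.1, and figures matplotlib 3.10.9.

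Same-numbered libraries came from the same mice, which pairs them by design. Deviations from the group means correlated with mean r = 0.508 (skeletal), 0.520 (visceral) and 0.556 (interneuron) between same-numbered libraries (lowest -0.220, -0.136 and -0.191) and -0.265, -0.268 and -0.287 between others. Such deviations cancel out within each group, so the negative means largely follow from the same-numbered values and are not a separate observation. No doublet caller was run on these corrected values; an alternative left out the 5% of nuclei with the most detected genes per library and cluster (717 nuclei). The script was tested on simulated data with known changes, where the region layout called more unchanged genes than the 5% aimed at when many genes were changed, and almost none when none were. Genes were named by rule: called members with the 8 largest changes in each direction, the 10 with the highest mean, per subfamily the highest member and those whose highest cluster was at least 4 times their median cluster, and called partners with the 3 largest changes; further members were named after their values were seen. Not reported here by name are 4 of the kept members, which the counts include except those of flagged libraries. Members and lists were chosen with earlier results of these data known. Alternatives covered the scaling, pseudocount, filter, nuclei, block, cluster weights and each library left out.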

Additional observations from a re-analysis of the deposited data

Results flagged for a closer look

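The lumbar/sacral difference was compared between classes by taking the difference of 2 classes within each library and testing it in limma, a test added after the data were seen. Values are signed differences on the log2 scale (first class named minus the second), at adjusted p under 0.05. A lower value can therefore be a larger fall, and does not mean a weaker difference. Between skeletal and visceral motor neurons it differed in 10 of 50 members (6.14% of all features). It was lower in skeletal than in visceral neurons for *Kcnk2* (-1.98), *Kcnk13* (-1.71), *Kcna4* (-1.31), *Kcnn2* (-1.21), *Kcnq5* (-0.99), *Kcnj3* (-0.97), *Kcna1* (-0.69), *Kcnh5* (-0.66) and *Kcnc1* (-0.59), and higher for *Kcnip4* (1.80). Between skeletal motor neurons and interneurons it differed in 2 of 50 (0.258% of all features), lower in skeletal neurons for *Kcnc2* (-0.94) and *Kcnk2* (-0.93). Between visceral motor neurons and interneurons it differed in 17 of 49 (9.16% of all features). It was higher in visceral neurons for *Kcnk13* (1.71), *Kcna4* (1.54), *Kcnn2* (1.13), *Kcnab1* (1.07), *Kcnj3* (1.07), *Kcnk2* (1.05), *Kcna1* (0.77), *Kcnh5* (0.71), *Kcnk1* (0.57) and *Kcnc1* (0.47), and lower for *Kcnh1* (-1.25), *Kcnc2* (-0.93), *Kcnt2* (-0.92), *Kcnh7* (-0.87), *Kcnip4* (-0.85), *Kcnb2* (-0.75) and *Kcnd3* (-0.54). Between these 2 classes *Kcnk13* passed the filter through the lumbar/sacral visceral sums alone, so its difference was bound to take this direction; it also passed with no filter. The clusters that make up the visceral class differ between the regions, as given above, and the part of that in these differences was not tested. Without the pair of libraries that went against their labels, *Kcna1* and *Kcnc1* no longer passed between skeletal and visceral neurons, nor *Kcna1* and *Kcnk1* between visceral neurons and interneurons. Without lumbar/sacral replicate 1, 2 or 3, 13, 10 and 10 of the differences no longer passed, each time with *Kcnk13* between visceral neurons and interneurons, which then missed the filter. With the pools of mice as a block *Kcna1* and *Kcnc1* between skeletal and visceral neurons, *Kcnk2* between skeletal neurons and interneurons and *Kcnd3* between visceral neurons and interneurons no longer passed. Of 18 alternatives each, *Kcnc1* and *Kcna1* between skeletal and visceral neurons missed the threshold in 11 and 10. *Kcnk2* between skeletal neurons and interneurons missed it in 10, and *Kcnk1* between visceral neurons and interneurons in 9. Each of these calls was also lost without cervical replicate 1.

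In 24 of 282 groups of 9 libraries (47 kept members in 3 classes and 3 skeletal types) the highest or lowest library lay far from the rest, which chance gives in about 1 in 20 groups, and in 12 of the 24 it was the library labelled cervical replicate 2. In that library these were *Kcnmb4* in S1 (31.9 CPM, highest; next 15.6), *Kcnip3* in S3 (2.15 CPM, highest; next 1.27), *Kcnk12* in interneurons (17 CPM, highest; next 10.9), *Kcnh8* in skeletal neurons (13.4 CPM, highest; next 8.28), *Kcnt2* in skeletal neurons (103 CPM, highest; next 53.2) and *Kcna6* in visceral neurons (26.3 CPM, lowest; next 36.8), and in S2, from 71 nuclei, *Kcnc2* in S2 (398 CPM, highest; next 212), *Kcng4* in S2 (2.94 CPM, lowest; next 35.1), *Kcnh1* in S2 (155 CPM, lowest; next 269.5), *Kcnh8* in S2 (28.5 CPM, highest; next 10.5), *Kcnj12* in S2 (0.981 CPM, lowest; next 11.9) and *Kcnmb2* in S2 (62.8 CPM, highest; next 28.6). In the library labelled thoracic replicate 2 it was *Kcnk3* in visceral neurons (37.7 CPM, highest; next 34.4).

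Lumbar/sacral replicate 1 stood apart for *Kcnh2* in S1 (51.3 CPM, highest; next 30.5), *Kcnn3* in S2 (255 CPM, highest; next 176), *Kcnip4* in S3 (3180.4 CPM, highest; next 1731) and *Kcnk10* in visceral neurons (311 CPM, highest; next 214), and lumbar/sacral replicate 2 for *Kcna4* in S1 (17.5 CPM, highest; next 11.3), *Kcna4* in S2 (9.54 CPM, highest; next 4.40), *Kcnab3* in S3 (5.63 CPM, highest; next 3.20) and *Kcna4* in skeletal neurons (9.68 CPM, highest; next 5.81). In cervical replicate 3 it was *Kcnk13* in S3 (183 CPM, highest; next 133). In thoracic replicate 3, whose S2 held 26 nuclei, it was *Kcnj9* in S2 (52.8 CPM, highest; next 26.2) and *Kcnab3* in interneurons (4.45 CPM, lowest; next 8.26).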

How the results depend on the processing

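Over 89 named gene results, 1496 values under other settings in which the gene was tested kept their direction: 1420 stayed on their side of the threshold, 76 no longer passed and 0 reversed. Counts of members under other settings are given without the share of all features, so they do not set the members apart from other features. A pseudocount of 20 took the count for skeletal against visceral from 24 to 14. With at least 10 corrected counts required in every sum, so that fewer genes were tested, the counts were 6 for S2 against S1, 10 for S2 against S3 and 3 for S1 against S3. For lumbar/sacral against rostral in visceral neurons the count of 8 became 4 with scaling by the median of ratios, 14 with the replicate block, 1 with clusters weighted equally, 10 with the rostral libraries as 1 group, and 2 to 11 with single libraries left out; the cause was not tested. The block changed no call in the other region comparisons, and 4 of the class differences of the lumbar/sacral effect no longer passed with it. Between male and female pools the count of 0 became 0 to 10 in skeletal neurons, 0 to 1 in visceral neurons and 0 to 8 in interneurons with single libraries left out. Scaling by the median of ratios moved the median log2 difference of all genes for lumbar/sacral against rostral skeletal neurons by -0.128 (from 0.118 to -0.00948). Leaving out the pair of libraries that went against their labels, taking the rostral libraries as 1 group and 2 regions as a term were chosen after seeing the data.

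Depth limits the low members and the small sums: a gene under 10 CPM in a sum of few nuclei rests on few counts, and members not kept were not compared between classes. Corrected counts carry the authors' regression, whose part in the levels was not tested. With 3 lumbar/sacral libraries, p-values of the class, type and region fits cover the spread between libraries of 3 pools of mice. Those of the sex fit, which held 1 pool per sex, cover the spread between libraries of the same mice. They hold no spread between pools of the same sex. Doublets were not called, and leaving out the nuclei with the most genes lost 0 of the 89 named results.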
